A study of Mus musculus with 6 samples.

Results

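The 5 genes described here are Ccl2, Cxcl12, Ccr1, Csf3 and Il18, which encode 2 chemokines, 1 chemokine receptor and 2 cytokines that act on leukocytes. They were chosen by gene symbol from 581 genes that the study had itself selected on the difference between these libraries, and all 5 were found. RNA sequencing had compared NIH-3T3 cells, an immortalised line of mouse embryo fibroblasts labelled wild type, on standard culture plates (3 libraries) and on a scaffold named Nanopore #3 (3 libraries). Both groups were labelled with the same line, and 1 growth protocol (DMEM with fetal bovine serum) is given for all libraries. The labels name neither the material of the scaffold nor the time in culture, and do not say whether replicates were separate cultures, so the spread given here may be technical.

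Chemokines are small secreted proteins that direct the migration of cells bearing matching G protein-coupled receptors. Ccl2 attracts monocytes through Ccr2, Cxcl12 retains and attracts haematopoietic and other cells through Cxcr4, and Ccr1 is a receptor for inflammatory CC chemokines such as Ccl3 and Ccl5. Csf3, the granulocyte colony-stimulating factor, drives the production and mobilisation of neutrophils. Il18 is a cytokine of the interleukin-1 family that is made as an inactive precursor and cut to its active form by caspase-1. Fibroblasts are a well-known source of Ccl2, Cxcl12 and Csf3, whereas Ccr1 is known mainly from leukocytes.

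The 2 chemokine genes belong to the 2 main classes of the family, which are named for the spacing of the first pair of cysteines. The coding stretches below show that difference in the reference transcripts (GENCODE M21, GRCm38). Capitals mark the cysteine codons, which are codons 34 and 35 in Ccl2 and codons 30 and 32 in Cxcl12. Both stretches lie in exon 2 and on the plus strand.
Ccl2, chr11:82036491-82036526: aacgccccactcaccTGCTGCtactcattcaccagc
Cxcl12, chr6:117171493-117171531: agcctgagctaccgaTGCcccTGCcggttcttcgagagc

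On the scaffold Ccl2, Ccr1 and Csf3 were higher and Cxcl12 and Il18 were lower, and for each gene the 3 scaffold values lay wholly to 1 side of the 3 plate values. Ccr1 differed most, with 8.52 times the plate mean, followed by Csf3 with 4.03 times and Ccl2 with 2.18 times. The plate mean was 2.50 times the scaffold mean for Il18 and 2.35 times for Cxcl12. Values are normalised read counts: the reads of a gene were divided by a library-wide size factor and not by gene length. At an adjusted p of 0.05, limma called all 5 genes, as it did 99.7% of the table (32.2% higher and 67.5% lower), and edgeR on 5 libraries called all 5 and 99.8% of the table. Values did not overlap between groups in 98.6% of the table (32.2% higher and 66.4% lower on the scaffold). The study chose the table on these same libraries and the genes were taken from it, so neither count is evidence of a difference, and the values below are a description with no test. The log2 differences are on log2(value + 1), with the standard error (SE) of the fit.

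**Figure D1:**
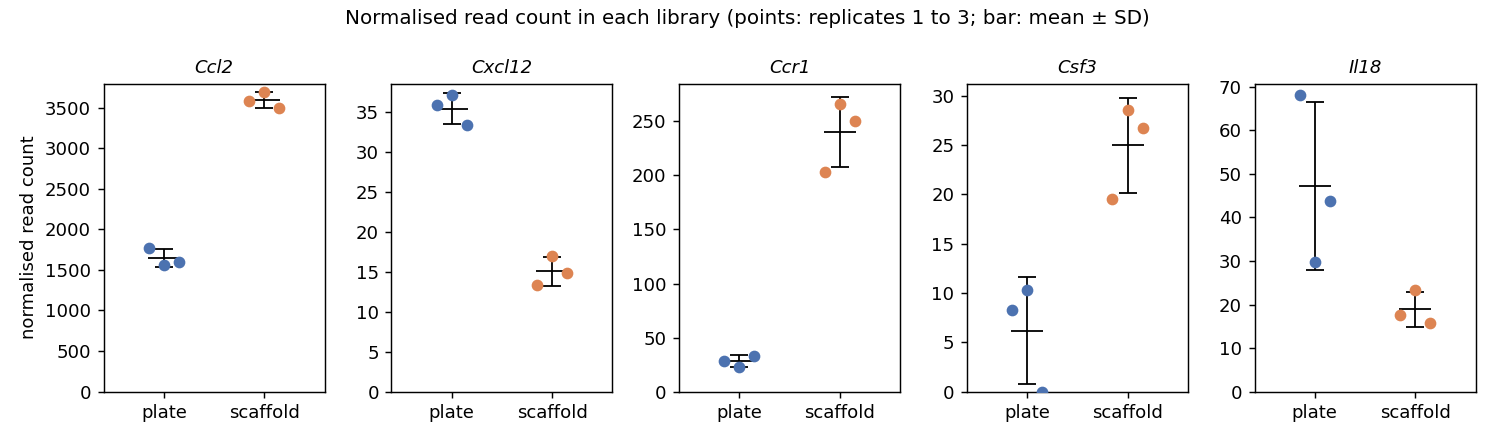
Normalised read count (vertical axes, each from 0) of the 5 genes in the 3 plate and 3 scaffold libraries; points are replicates 1 to 3 in order, and bars give the mean ± SD. The scaffold points lie above all plate points for Ccl2, Ccr1 and Csf3 and below them for Cxcl12 and Il18; Csf3 is at 0 in plate replicate 3.

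Ccl2 (ENSMUSG00000035385, GRCm38 chromosome 11, 82035571 to 82037453) was the abundant member. The 3 plate libraries had 1773, 1557 and 1602 normalised reads, and the scaffold libraries 3586, 3687 and 3490. Every scaffold value was thus at least 1.97 times the highest plate value, and the replicates of each group lay close together. The means were 1644 ± 114 and 3588 ± 98.3 (SD, n = 3 each), a log2 difference of 1.13 (SE 0.0723). Among the 189 genes with a higher scaffold level this was a small difference, at rank 154 by size.

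Cxcl12 (ENSMUSG00000061353, chromosome 6, 117168535 to 117181367), the other chemokine, was a low gene that went the opposite way. The plate libraries had 35.9, 37.0 and 33.3 normalised reads of it, and the scaffold libraries 13.4, 16.9 and 14.8. The lowest plate value was 1.97 times the highest scaffold value, the same separation as for Ccl2. The means were 35.4 ± 1.91 and 15.05 ± 1.80 (n = 3 each), a log2 difference of -1.19 (SE 0.234). The plate SD of 1.91 was smaller than the 5.85 that counting error alone would give at this level. The table holds 1 value for the gene, so its 3 annotated protein-coding transcripts cannot be told apart.

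In the ratio of the 2 chemokines within a library, a single scaling factor per library, such as a size factor or equal medians, cancels. On plates there were 49.4, 42.0 and 48.1 reads of Ccl2 per read of Cxcl12, and on the scaffold 268, 218 and 235. The mean ratio thus went from 46.5 ± 3.95 to 240.3 ± 25.7 (n = 3 each), 5.17 times the plate mean. This shows that the 2 genes differed unequally, not how much of the change lay in each. Quantile normalisation, which is not a single factor, brought the 2 log2 differences closer, to 0.28 and -0.46.

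Ccr1 (ENSMUSG00000025804, chromosome 9, 123962124 to 123968692, minus strand) had 28.5, 22.6 and 33.3 normalised reads on plates, against 204, 266 and 250.4 on the scaffold. The lowest scaffold value was 6.11 times the highest plate value, the widest separation of the 5 genes. The means were 28.2 ± 5.35 and 240.0 ± 32.4 (n = 3 each), a log2 difference of 3.05 (SE 0.194). That was the fifth largest of the 189 genes that were higher on the scaffold. In whole reads, Ccr1 had 31, 22 and 35 on plates and 198 and 251 in scaffold replicates 1 and 2, the libraries whose reads could be recovered. The plate SD was 1.02 times that given by counting error alone. Per normalised read of Ccl2, Ccr1 went from 0.0171 ± 0.00326 to 0.0669 ± 0.00875 (n = 3 each), so within a library the receptor gene gained on the chemokine gene 3.90 times.

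Ccr1 had a single annotated transcript, and none of the 5 genes shared a stretch of 50 bases with a transcript of any other gene in GENCODE M21. None shared exon bases with another gene on either strand. Ccl2 and Il18 lie across the spans of opposite-strand genes (Gm17268, and Bco2 with Tex12) without shared exons. No gene of the table lay within 1 Mb of Ccl2, Cxcl12, Ccr1 or Il18, so none of the chemokine genes that cluster beside Ccl2, nor the receptor genes beside Ccr1, was among the 581.

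Csf3 (ENSMUSG00000038067, chromosome 11, 98701263 to 98703629) had the fewest reads of the 5 on plates. The plate libraries had 8.28, 10.3 and 0 normalised reads, against 19.5, 28.6 and 26.7 for the scaffold. All scaffold values exceeded the plate values, but plate replicate 3, with 0 reads, stood apart from the 9 and 10 reads of the other 2 plate libraries. The means were 6.19 ± 5.45 and 24.95 ± 4.78 (n = 3 each), a log2 difference of 2.44 (SE 0.798), rank 16 of 189. Without plate replicate 3 the log2 difference was 1.33. With a pseudocount of 0.01 in place of 1 it was 4.70 and no longer passed the threshold, so its size is uncertain.

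Il18 (ENSMUSG00000039217, chromosome 9, 50554827 to 50581840) was the most variable of the 5 on plates after Csf3, with an SD of 40.9% of the mean against 88.1%. Plate libraries had 68.0, 29.8 and 43.8 normalised reads, and scaffold libraries 17.5, 23.3 and 15.8. Plate replicate 2 was only 1.28 times the highest scaffold value, the narrowest separation of the 5 genes. The means were 47.2 ± 19.3 and 18.9 ± 3.92 (n = 3 each), a log2 difference of -1.22 (SE 0.320). The 74, 29 and 46 plate reads varied 2.86 times as much as counting error alone would give. Relative to Cxcl12, the other gene that was lower, Il18 did not separate the groups, with ratios of 1.90, 0.806 and 1.31 on plates, against 1.31, 1.37 and 1.07 on the scaffold.

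Set against the whole table, the 2 lower genes lay near the median difference. The median log2 difference of all 581 genes was -1.16, that of the 5 members 1.13. The latter is the value of Ccl2 and reflects only that 3 of the 5 were higher. The members were chosen from this table, so nothing is read from their median. Among the 392 lower genes, Il18 ranked 264 and Cxcl12 281 by size, so both were among the smaller differences of that group. No gene of the table had a ratio of group means smaller than 0.997 on the log2 scale, in either direction. When libraries were rescaled to equal medians over the table, the median of all genes shifted by 0.74, Cxcl12 went to -0.46 and Il18 to -0.48, and neither passed the threshold any longer. Ccl2 then stood at 1.89. Quantile normalisation shifted the median by 0.63, gave -0.46 and -0.50 for these genes, which again did not pass, and took Ccl2 from 1.13 to 0.28. Lower genes made up 67.7% of the calls with the deposited scaling, 52.4% with equal medians and 52.9% with quantile normalisation. Both rescalings rest on these selected and mostly lower genes alone, so the lost calls do not check the deposited scaling. No member changed direction under any of the alternatives run.

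**Figure D2:**
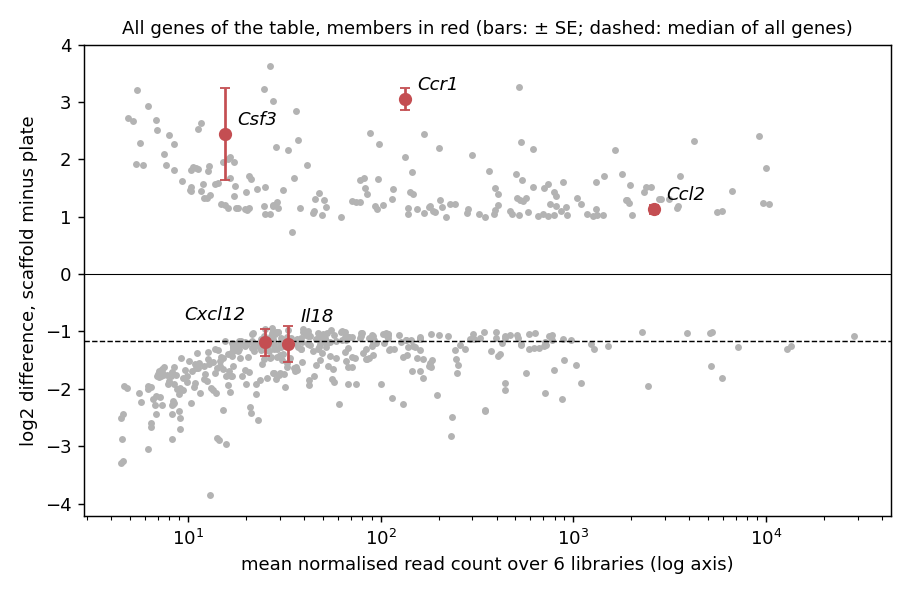
Log2 difference, scaffold minus plate (vertical axis), against the mean normalised read count over 6 libraries (horizontal log axis) for all 581 genes in grey and the 5 members in red with ± SE. Ccr1 and Csf3 lie among the larger increases, Ccl2 near the lower edge of the higher genes, and Cxcl12 and Il18 near the dashed median of all genes at -1.16.

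Levels of different genes were compared per kilobase of the deposited gene length. For the members that length covers the exons of all annotated transcripts, which for Cxcl12 is 8176 bases over 4 transcripts. Where mainly a shorter transcript is expressed, the level per kilobase is understated. On plates the normalised read count per kilobase was 1444 ± 100.1 for Ccl2, 45.8 ± 18.7 for Il18, 9.94 ± 1.89 for Ccr1, 4.38 ± 3.86 for Csf3 and 4.33 ± 0.233 for Cxcl12 (n = 3 each). The last 2 could not be ordered, since Csf3 ranged from 0 to 7.28 and Cxcl12 from 4.07 to 4.53. On the scaffold the order was Ccl2 at 3153 ± 86.4, Ccr1 at 84.7 ± 11.4, Il18 at 18.3 ± 3.80, Csf3 at 17.7 ± 3.38 and Cxcl12 at 1.84 ± 0.220. Ccr1 thus stood below Il18 in every plate library and above it in every scaffold library. Il18 and Csf3 overlapped on the scaffold, with 15.4 to 22.6 and 13.8 to 20.2. Per kilobase, the Ccl2 level was far above that of the other 4 genes in both groups.

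**Figure D3:**
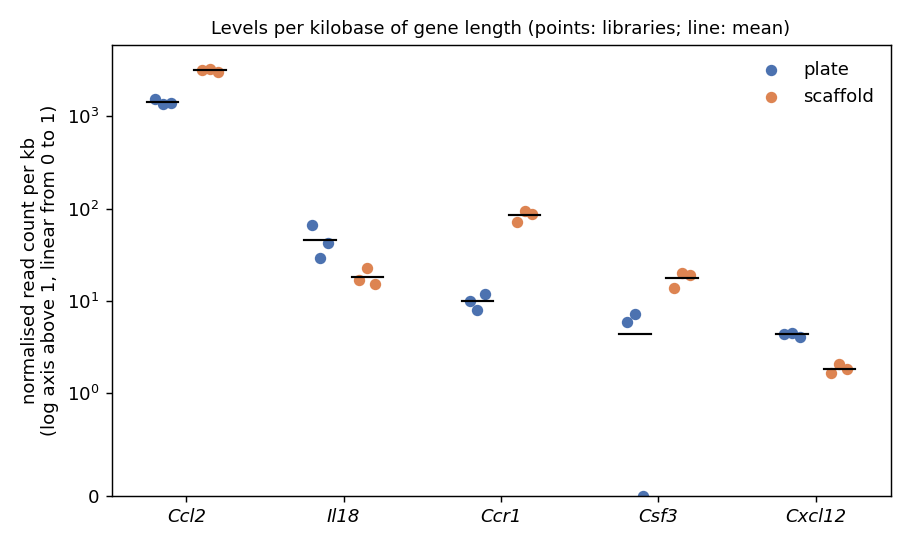
Normalised read count per kilobase of gene length (vertical axis, logarithmic above 1 and linear from 0 to 1) for the 5 genes in plate (blue) and scaffold (orange) libraries, with lines at the means. Ccr1 moves from about 9.94 to 84.7 and passes Il18, which moves from 45.8 to 18.3.

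Other genes of the same pathways were looked up among the 581. Of 38 chemokine symbols the table held 2, Ccl2 and Cxcl12. Of 24 chemokine receptor symbols it held 2, Ccr1 and Cxcr3, both higher on the scaffold, as were 32.2% of the table. Cxcr3 is the receptor for the interferon-induced chemokines Cxcl9 and Cxcl10. It had 2, 1 and 2 reads on plates, and its normalised read counts were 1.84, 1.03 and 1.90 there against 9.25, 5.30 and 12.9 on the scaffold. Receptors for Ccl2, Cxcl12, Csf3 and Il18 (Ccr2, Cxcr4, Ackr3, Csf3r, Il18r1) were not analysed here, nor were the Ccr1 ligands.

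The cytokine side of the list held 2 of 26 cytokine symbols, Csf3 and Il18, and 1 of 21 cytokine receptor symbols. That receptor was Il15ra, which presents interleukin-15 to lymphocytes. It was lower on the scaffold, from 34.9, 28.8 and 46.6 normalised reads to 16.5, 4.24 and 10.9 (log2 difference -1.85, SE 0.433). Equal medians gave -1.14, and quantile normalisation ended its call at -1.05.

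From the list of interleukin-18 and interleukin-1 processing the table held 2 of 11 symbols, both inflammatory caspases. Both were lower on the scaffold, as were 67.5% of the table, so nothing is read from that count. Casp1, the caspase that cuts the interleukin-18 precursor, had 31.3, 27.8 and 22.8 normalised reads on plates, against 14.4, 5.30 and 9.90 on the scaffold, a log2 difference of -1.46 (SE 0.363). Casp4, which senses cytosolic lipopolysaccharide, had 549, 522 and 513 on plates, against 304, 273 and 212 on the scaffold, a log2 difference of -1.02 (SE 0.139). Equal medians ended both calls, at -0.76 and -0.26, and quantile normalisation that of Casp1, at -0.67. The 20 symbols for NF-kB subunits, inhibitors and feedback targets and the 10 symbols for AU-rich mRNA decay and C/EBP regulators had no member among the 581. Over the 7 lists 9 of 150 symbols were present, 4 higher and 5 lower, with a median log2 difference of -1.02 against -1.16 for the table. The 9 include the 5 members themselves, which were chosen from this table, so nothing is read from the split or the median.

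Few of the listed marker genes of leukocytes were among the 581. The listed ones present, Mrc1 and S100a8, were higher on the scaffold, as were 32.2% of the table, so nothing is read from their direction. Genes known from leukocytes but outside these lists went both ways. Examples, picked after their values were seen, are Cd33 (log2 difference -1.56) and Clec4d (1.42). The table held 0 of 5 pan-leukocyte and 0 of 8 lymphocyte markers, so their defining genes (Ptprc, Cd3e) were not analysed here. Of 11 macrophage and monocyte markers it held 1, the mannose receptor gene Mrc1, at 29.4 to 46.3 on plates and 106 to 150.5 on the scaffold. Of 7 neutrophil markers it held 1, S100a8, which encodes a calcium-binding protein, at 2.86 to 11.3 and 23.8 to 29.8. The epithelial marker Krt8 stood at 13.3 to 17.5 and 29.8 to 37.6, the only 1 of 6 present, and 0 of 5 endothelial markers were present. The fibroblast list held 2 of 11, the type I collagen genes Col1a1 and Col1a2, with a summed value of 56194 to 57427 on plates and 23212 to 30363 on the scaffold. All libraries were labelled with the same fibroblast line, and the labels name no other cell type. In bulk values, a change in a few cells and a change in all cells cannot be told apart. The part of these markers in the results was not tested.

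**Figure D4:**
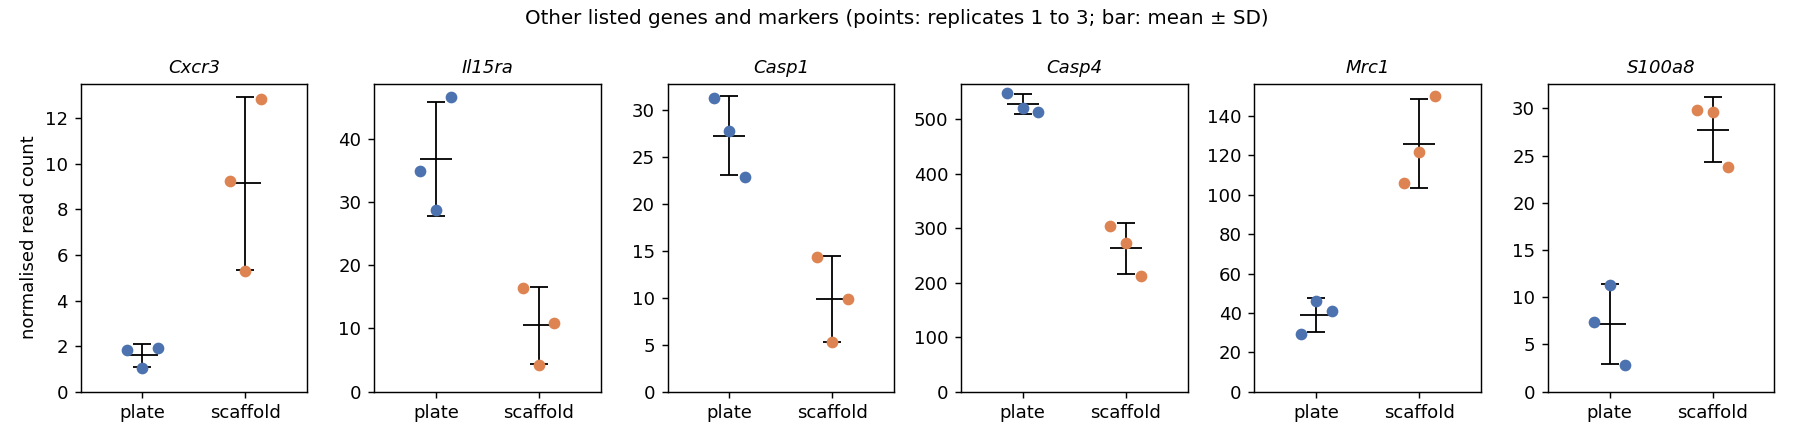
Normalised read count (vertical axes, each from 0) in the 3 plate and 3 scaffold libraries for the other listed genes that the report describes by library, Cxcr3, Il15ra, Casp1 and Casp4, and for the markers Mrc1 and S100a8; points are replicates and bars the mean ± SD. Il15ra, Casp1 and Casp4 are lower on the scaffold in all libraries, Cxcr3, Mrc1 and S100a8 higher.

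Genes with profiles most like each member were found by the Euclidean distance over the 6 libraries between log2(value + 1) profiles centred on each gene's own mean, among 573 genes with a mean of at least 5. Nearest to Ccl2 was Msmo1, an enzyme of cholesterol synthesis, at a distance of 0.0533. It had 3996, 3613 and 3632 normalised reads on plates, against 8001, 8457 and 7753 on the scaffold. Genes were picked for likeness over these same values, and all had been selected on the difference between the groups. The likeness is therefore a description and not a separate result. Dusp9, a MAP kinase phosphatase, and Foxc2, a forkhead transcription factor, followed at 0.110 and 0.142. Nearest to Cxcl12 were Abcd2, a peroxisomal fatty acid transporter, at 0.184, the unclassified transcript Gm38372 at 0.187 and the laminin chain gene Lama2 at 0.237.

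Ccr1 and the cytokine genes lay further from their nearest genes. These distances include counting error, which is larger on a log scale for genes with few reads. A larger distance therefore need not mean a more particular profile. The nearest to Ccr1 was the unclassified transcript Gm37691 at 0.683, which had 0, 0 and 1 read on plates, then Clip4 at 0.791 and the matrix protease gene Mmp10 at 0.827. Mmp10 had 60.7, 35.0 and 63.8 normalised reads on plates, against 252, 318 and 284 on the scaffold. Nearest to Il18 were the unclassified transcript Gm43858 at 0.533, the processed pseudogene Gm12276 at 0.565 and Cacng7 at 0.632. Nearest to Csf3, at 1.80, was the marker S100a8. Its lowest plate value of 2.86, or 3 reads, was in plate replicate 3, the library in which Csf3 was at 0. Nearest genes were picked on these same values, so the shared low value is not a separate result. Gm48710 and the peptidylarginine deiminase gene Padi2 followed at 1.98 and 2.10.

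The sequences flanking the start and end of the genes were read to see what the members share. AU-rich pentamers (ATTTA) in the 3' untranslated region are known to shorten the life of many cytokine mRNAs, that of Csf3 among them. In the transcript with the longest coding part, Csf3 had 6 pentamers in 669 bases, or 8.97 per kilobase. Il18 had 1 in 123 bases, Ccl2 1 in 275, Ccr1 1 in 1300 and Cxcl12 4 in 5188. At least 1 pentamer was present in 61.5% of the 20707 protein-coding genes with such a region and in 66.7% of the 405 of them in the table. At least 5 per kilobase were present in 7.91% and 8.15%, and Il18 also passed that density, at 8.13 from its 1 pentamer. At least 5 pentamers of any density were present in 18.9% and 20.0%. The longer AU-rich form TTATTTAWW (W is A or T) was in none of the members, and in 14.8% and 18.3% of the same sets. The densest site of 30 bases in Csf3, in exon 5 on the plus strand of GRCm38, held 3 pentamers, marked in capitals, while that of Ccl2, in exon 3, held 1.
Csf3, chr11:98702987-98703016: agtttATTTAtctctATTTAatATTTAtgc
Ccl2, chr11:82037213-82037242: aacttATTTAacttattgatgttatggtat

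Promoter windows from 250 bases before to 50 after the start were present for 3 of the 5 genes (RefSeq, GRCm38.p6). They are those of Ccr1, the member with the largest difference, and of Cxcl12 and Il18, the pair that was lower. The motifs searched on both strands were the TATA box TATAAA, the AP-1 site TGANTCA, the C/EBP site TTGCNNAA, the STAT site TTCNNNGAA and the NF-kB consensus. Of 32851 promoter windows they occurred in 13.6%, 7.81%, 10.8%, 8.30% and 8.46%. Capitals mark the matches, which do not overlap.
Ccr1, chr9:123968643-123968942, minus strand: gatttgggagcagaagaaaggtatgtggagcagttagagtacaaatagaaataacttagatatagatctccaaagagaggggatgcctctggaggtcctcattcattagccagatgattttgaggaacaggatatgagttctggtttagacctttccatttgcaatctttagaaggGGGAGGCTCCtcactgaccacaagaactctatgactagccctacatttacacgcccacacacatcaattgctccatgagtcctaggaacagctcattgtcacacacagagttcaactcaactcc
Cxcl12, chr6:117168285-117168584, plus strand: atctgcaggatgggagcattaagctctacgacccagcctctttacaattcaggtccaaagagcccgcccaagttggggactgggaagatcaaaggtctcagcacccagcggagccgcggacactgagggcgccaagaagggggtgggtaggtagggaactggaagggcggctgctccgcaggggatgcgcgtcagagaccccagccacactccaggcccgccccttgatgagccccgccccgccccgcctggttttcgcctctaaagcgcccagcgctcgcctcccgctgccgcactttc
Il18, chr9:50554450-50554749, plus strand: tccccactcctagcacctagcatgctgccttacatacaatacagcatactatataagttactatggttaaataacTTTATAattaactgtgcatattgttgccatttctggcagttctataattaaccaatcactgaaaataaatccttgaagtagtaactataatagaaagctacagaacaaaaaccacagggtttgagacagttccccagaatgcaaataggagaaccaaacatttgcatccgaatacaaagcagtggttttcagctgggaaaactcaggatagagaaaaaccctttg

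The Ccr1 window held 1 match to the NF-kB consensus on its forward strand, at positions -74 to -65 from the start. The Il18 window held 1 TATAAA on the reverse strand, at positions -175 to -170, and the Cxcl12 window held none of the 5 motifs. Positions count from the RefSeq start, which for Il18 lies upstream of the start given in the table, so that its window falls wholly before the gene as listed there. The windows of Cxcl12 and Il18 differed in base composition, with 64.7% and 36.7% G and C, and that of Ccr1 had 44.0%. A match is a run of letters and not a measured binding site.

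**Figure D5:**
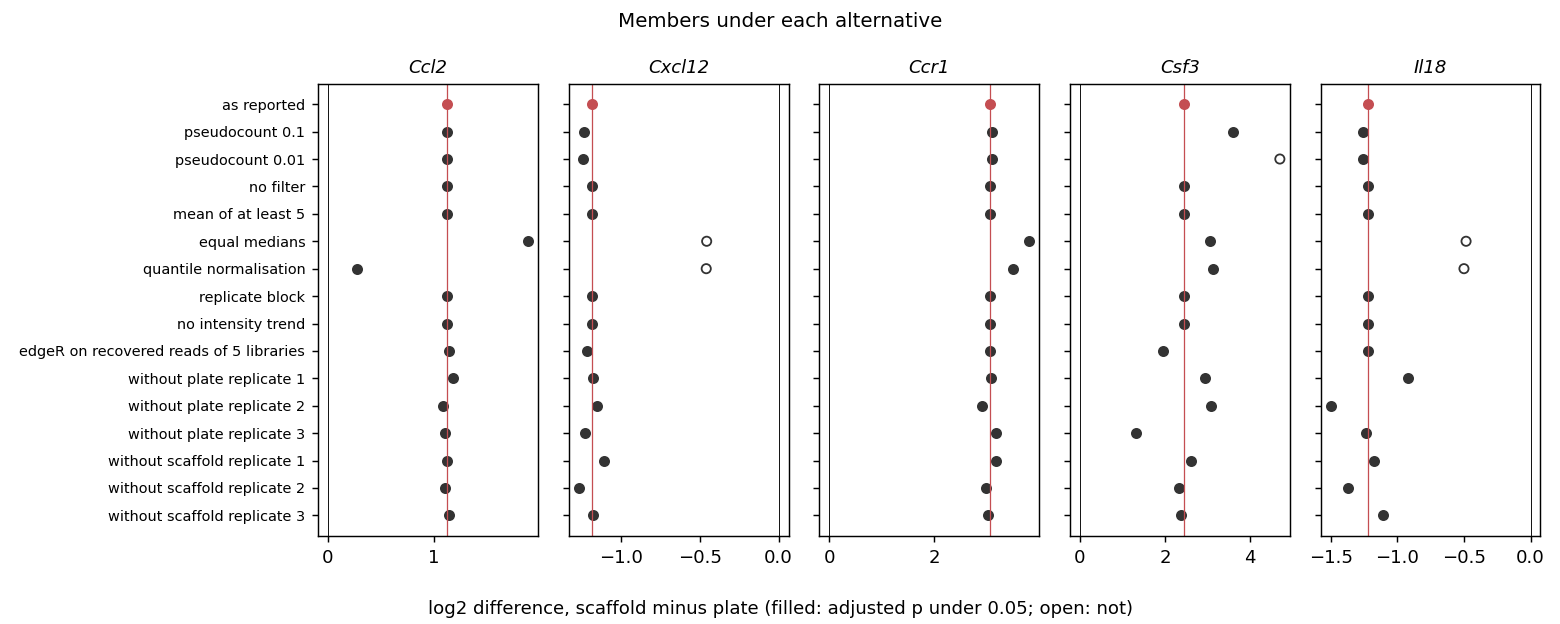
Log2 difference, scaffold minus plate (horizontal axes, a scale for each gene), of the 5 members as reported (red) and under each alternative (black); filled points passed an adjusted p of 0.05 in that fit, open points did not. Ccr1 stays between 2.91 and 3.80, Cxcl12 and Il18 are open under both rescalings, and Csf3 runs from 1.33 without plate replicate 3 to 4.70 with a pseudocount of 0.01.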

How the data were processed

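Per the labels' protocols, TRIzol was used to isolate total RNA and a NEBNext Ultra kit to prepare the libraries. The submitters' processing notes list fastp, HISAT2, HTSeq, DESeq2 and the build GRCm39, without versions or roles. The deposited values are a normalised signal: in each library 100% of them were whole multiples of 1 step, within 0.01 read, so the authors had divided reads per gene by a size factor, although the tables are named FPKM. Size factors ran from 0.944 to 1.09. Over the 581 genes the 5 libraries with accepted whole reads held 264178 to 293198 reads; for scaffold replicate 3 an automatic check of the step did not accept them, so it entered no count test. Of the 581 identifiers, 555 had the start and end of GENCODE M21, so coordinates are given as GRCm38.

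Log2(value + 1) was fitted with limma 3.58.1 (R 4.3.3) for all genes with a mean of at least 0.5, with an intensity trend, no block, two-sided, Benjamini-Hochberg adjusted at 0.05. The fit was also run on simulated data, in which most genes were set not to differ. Nearly all genes of this table were called, so that run does not check the fit here. The count alternative was edgeR 4.0.16. Named genes were the 5 members, the listed genes present, and the 3 nearest profiles of each member. Added after their values were seen were 3 further receptor genes and the leukocyte genes Cd33 and Clec4d. Members and lists were chosen with earlier results of these data known. Counting error is the square root of the mean read number, rescaled. No column of values was left out. Same-numbered plate and scaffold libraries did not deviate together across genes (correlations -0.03, 0.07 and 0.06), so the numbers were not taken as pairs.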

Additional observations from a re-analysis of the deposited data

How the results depend on the processing

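All 5 members kept their direction and stayed past the threshold with a pseudocount of 0.1, without the filter or with a mean of at least 5, without the intensity trend and in edgeR on 5 libraries. They also did so when each library was left out. The genes were selected on these same libraries, and 99.7% of the table was called in the main fit. Staying past the threshold is therefore not evidence of a difference. The SE depended on the intensity trend. Without it the SE was 0.119 for Ccl2 and 0.137 for Cxcl12, against 0.0723 and 0.234 with it. The replicate number as a block changed no call of a member and left 188 genes higher and 392 lower, against 187 and 392 without it; the value for Ccr1 was 3.05 in both, since the block alters only the error. With a pseudocount of 0.01, Csf3 was at 4.70 and not called. With equal medians Cxcl12 was at -0.46 and Il18 at -0.48, and with quantile normalisation at -0.46 and -0.50, none of them called. The genes called lower over the table then numbered 208 and 210 in place of 392. Both rescalings use only these selected genes, most of which were lower, so they do not check the deposited scaling. Leaving out each library in turn gave 1.09 to 1.18 for Ccl2, 2.91 to 3.18 for Ccr1, 1.33 to 3.07 for Csf3, -1.27 to -1.11 for Cxcl12 and -1.50 to -0.92 for Il18. The lowest value for Csf3 came without plate replicate 3.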

Other observations

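Tnfrsf12a, Tnfrsf18 and Tlr1, receptor genes of inflammatory signalling, were in the table but in none of the lists, and were chosen after their values were seen. Tnfrsf12a, the receptor for the TNF family cytokine TWEAK, was abundant and higher on the scaffold, with 3603, 3506 and 3610 normalised reads on plates against 7263, 7916 and 7442 (log2 difference 1.08, SE 0.0575, with 1.84 under equal medians and 0.77 under quantile normalisation). Tnfrsf18, which encodes the co-stimulatory receptor GITR known from T cells, was low and went the other way, with 34.9, 43.2 and 32.4 on plates against 9.25, 19.1 and 10.9 (log2 difference -1.48, SE 0.310). The call of Tnfrsf18 ended under both rescalings, at -0.75 and -0.70. Tlr1, a receptor for bacterial lipoproteins, had 27.6, 36.0 and 47.6 on plates against 28.8, 10.6 and 13.9, so its groups overlapped. Its log2 difference of -1.11 (SE 0.375) was no longer called without plate replicate 3 (-0.92), without scaffold replicate 2 (-0.82), with equal medians (-0.38) or with quantile normalisation (-0.37).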
